A study of Mus musculus with 8 samples.

Results

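The Ifitm genes encode the interferon-induced transmembrane proteins, and the 6 mouse genes Ifitm1, Ifitm2, Ifitm3, Ifitm5, Ifitm6 and Ifitm7 were taken by symbol as the members described here. All 6 were measured, among 24011 named genes. The series compared 2 populations sorted from the bone marrow of adult C57Bl6 mice, with 4 arrays each and no treatment or engineered allele named for either. Lin+ cells carry surface markers of mature blood lineages. HSC-enriched cells, sorted to concentrate haematopoietic stem cells (HSCs), are LSK cells (with Sca-1 and Kit but no lineage markers) that were positive for CD105 and negative for CD48 according to the sample labels, while the design text of the series writes CD150 in place of CD105. Values are log2 levels of 1 probe set per gene after RMA, the usual background correction, normalization and summary of Affymetrix arrays. Whether the replicates are different animals is not stated in the labels, and the p-values describe only the spread between these arrays, which may be technical.

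Ifitm proteins are small membrane proteins that share the CD225 domain. Ifitm1, Ifitm2 and Ifitm3 are known for hindering the fusion of enveloped viruses with the membranes of the cell, Ifitm3 mainly in endosomes, and their genes respond to interferon. Ifitm5 is known from bone-forming osteoblasts, where it takes part in mineralization, while Ifitm6 and Ifitm7 are less studied. Stem cells of several tissues are known to express some interferon-stimulated genes, Ifitm3 among them, without infection.

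Of the 6 members, 2 were higher in HSC-enriched cells (Ifitm2 and Ifitm7), 2 were lower (Ifitm1 and Ifitm6) and 2 did not pass (Ifitm3 and Ifitm5), by limma with Benjamini-Hochberg adjustment over all genes at an adjusted p of 0.05. Over all 24011 genes 27.8% passed this test, 15.5% as higher and 12.4% as lower, so with 6 genes the share of members called is not a result about the family. The members moved in opposite directions and by very different amounts, from a 25.2-fold fall of Ifitm6 to a 4.05-fold rise of Ifitm7. Their median difference (HSC-enriched minus Lin+) was 0.09 on the log2 scale, against 0.02 for all genes. Which probes make up each probe set is not given in the sources used here, and whether the probes of 1 Ifitm gene also bind the transcript of a near-identical member was not tested.

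**Figure D1:**
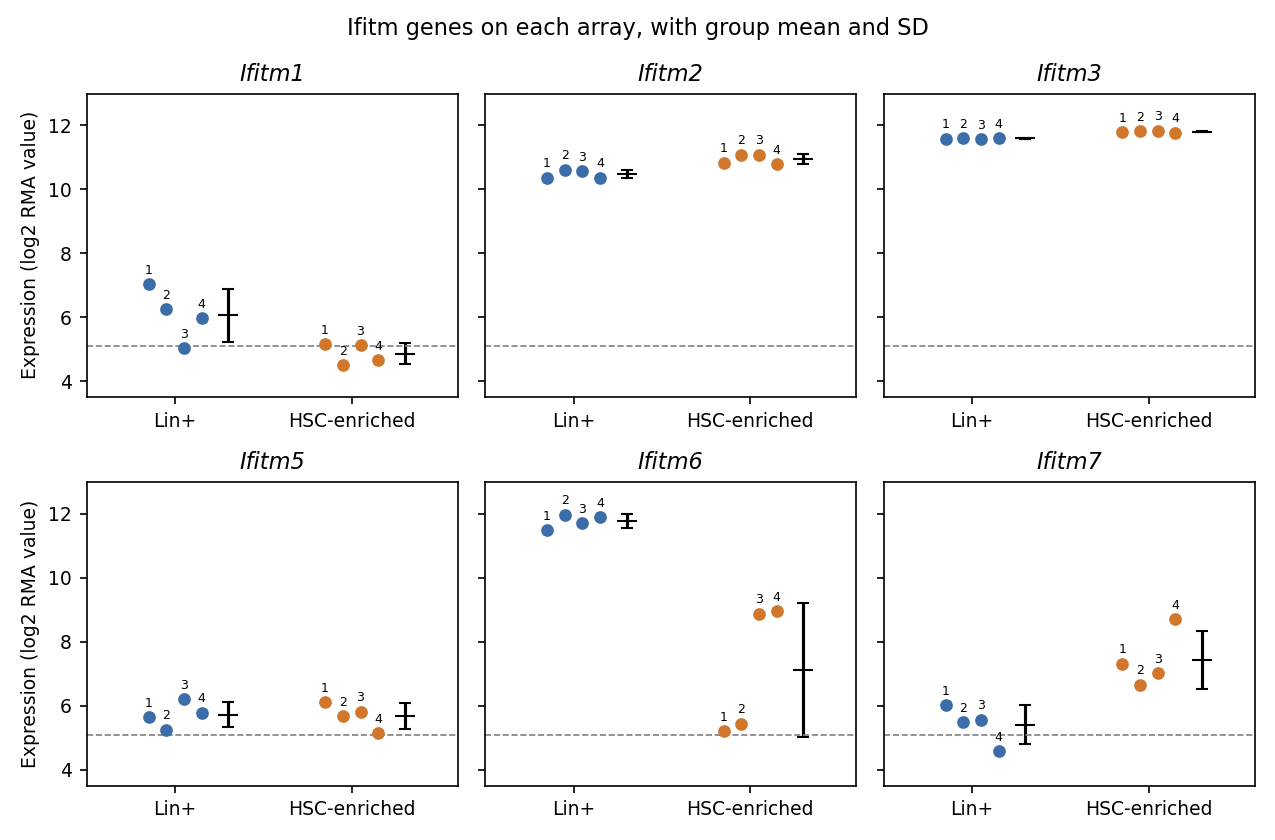
Log2 RMA level (vertical axis) of each Ifitm gene on the 4 Lin+ arrays (blue) and the 4 HSC-enriched arrays (orange), with replicate numbers, group means and SDs (black); the dashed line at 5.10 is a guide to background, the 95th percentile of 1074 olfactory receptor genes. Ifitm2 and Ifitm3 lay far above the guide in both groups, Ifitm6 fell to 5.19 and 5.44 on HSC-enriched replicates 1 and 2 but only to 8.88 and 8.95 on replicates 3 and 4, and Ifitm7 was higher on all 4 HSC-enriched arrays.

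In the RefSeq gene table Ifitm5, Ifitm2, Ifitm1, Ifitm3 and Ifitm6 follow each other on chromosome 7 in that order with no other protein-coding gene between them, and Ifitm7 lies alone on chromosome 16. RefSeq promoter windows (GRCm38.p6, 250 bases before to 50 after the start of transcription) matched all 6 members. The interferon-stimulated response element is the site through which type I interferon acts on its target genes, and its core was searched on both strands as GAAA, any 2 bases, then GAAA. It was present in the windows of Ifitm2, once, and Ifitm3, at 2 positions, and in 3.44% of the 32851 windows of all genes. Both matches of Ifitm3 lie just past the start, with first bases at positions 3 and 20, and the match of Ifitm2 begins at position -46. The 2 stretches are shown because they belong to the members with high levels in both populations, with the core matches in capitals, each read 5′ to 3′ on the minus strand.
Ifitm2 at chr7:140955979-140956008: gGAAAAGGAAAttgctagagaaagggcggg
Ifitm3 at chr7:141010714-141010743: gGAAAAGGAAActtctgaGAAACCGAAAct
The longest run shared by these 2 windows was caggaaaaggaaa, of 13 bases, against 7 to 10 bases for the other pairs of members.

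The window of Ifitm3 also held the gamma-activated site TTCNNNGAA, found in 8.30% of windows, at position 14, where it overlaps the second core match. The 120 bases before the start of Ifitm6 and of Ifitm7 are shown because these members had the largest fall and the largest rise. Capitals mark a TATA box (TATAAA, in 13.6% of windows) and, overlapping each other next to the start of Ifitm6, a reverse-strand match of the Ets family core AGGAAGT (in 9.35% of windows) and a gamma-activated site. The stretch of Ifitm7 held none of the 4 motifs.
Ifitm6 at chr7:141016893-141017012, minus strand: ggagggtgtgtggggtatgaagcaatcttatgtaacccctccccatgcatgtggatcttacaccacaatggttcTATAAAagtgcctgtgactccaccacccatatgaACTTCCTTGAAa
Ifitm7 at chr16:13986868-13986987, minus strand: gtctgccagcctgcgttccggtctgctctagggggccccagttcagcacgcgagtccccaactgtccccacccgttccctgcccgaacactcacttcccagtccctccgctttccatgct
A match of letters is a description of the window and no evidence that a factor binds there.

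Ifitm3 (Entrez gene 66141), the member best known for restricting virus entry through endosomes, varied little between arrays. Its log2 levels were 11.59, 11.60, 11.58 and 11.61 on Lin+ replicates 1 to 4 and 11.79, 11.82, 11.84 and 11.78 on the HSC-enriched replicates in the same order. All 4 HSC-enriched arrays thus lay above all 4 Lin+ arrays, as in one direction or the other for 28.9% of all genes. The difference was 0.22 ± 0.09 (SE), a 1.16-fold rise that did not pass (adjusted p = 0.0951, limma). The 95% interval of the difference ran from 0.02 to 0.41. The SE in this fit is drawn toward that of other genes and exceeds the 0.0154 that the spread of Ifitm3 alone gives. The gene passed in 2 of 17 alternatives, with a trend and robust estimates in the variance model (adjusted p = 0.0121) and with the values quantile normalized again (a difference of 0.45, adjusted p = 0.00196).

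Ifitm2 (80876), the relative of Ifitm3 in endosomes, was higher in HSC-enriched cells. Its levels were 10.36, 10.61, 10.56 and 10.37 on Lin+ replicates 1 to 4 against 10.84, 11.09, 11.09 and 10.79 on HSC-enriched replicates 1 to 4, with no overlap. The rise of 0.48 ± 0.12, or 1.39-fold, passed (adjusted p = 0.0104, limma) and did so in all 17 alternatives (adjusted p from 0.00097 to 0.0415). HSC-enriched replicates 3 and 4, which stood apart for other transcripts as given below, did not stand apart for either gene.

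Ifitm1 (68713), known as a protein of the cell surface, was low in both populations and lower in HSC-enriched cells. The Lin+ replicates were at 7.03, 6.25, 5.03 and 5.96, and the HSC-enriched ones at 5.16, 4.50, 5.13 and 4.66. The groups overlapped, since Lin+ replicate 3 lay below HSC-enriched replicates 1 and 3, and only 5 of the 8 arrays exceeded the background guide of 5.10. The fall of 1.21 ± 0.36 (adjusted p = 0.0276, limma) therefore rests on an HSC-enriched mean near background. The call was lost when Lin+ replicate 1, 2 or 4 was left out (adjusted p = 0.0505, 0.0706 and 0.0524) and likewise for HSC-enriched replicate 2 or 4 (0.0772 and 0.0654). It was also lost when HSC-enriched replicates 3 and 4 were both left out (0.0976). Without Lin+ replicate 3 the fall was 1.56 (adjusted p = 0.00231).

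Ifitm6 (213002) changed most. Its Lin+ levels were 11.50, 11.98, 11.72 and 11.90, and its HSC-enriched levels 5.19, 5.44, 8.88 and 8.95. The groups did not overlap, but HSC-enriched replicates 3 and 4 lay between the Lin+ arrays and replicates 1 and 2, which were close to the background guide. The fall was 4.66 ± 0.81, or 25.2-fold (95% interval 7.19-fold to 88.4-fold, adjusted p = 0.00146, limma), and its difference was the 89th lowest of 24011. Leaving out HSC-enriched replicate 1, 2, 3 or 4 gave differences of -4.01, -4.10, -5.24 and -5.27, and leaving out replicates 3 and 4 together gave -6.46 (adjusted p = 1.5e-07). Ifitm6 passed in all 17 alternatives.

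The same arrays were unequal in transcripts of neutrophils, the most numerous granulocytes of marrow. The mean log2 level of 16 neutrophil marker genes was 6.56, 6.48, 8.82 and 8.71 on HSC-enriched replicates 1 to 4, against 11.22 to 11.51 on Lin+ arrays. Of the 16, 15 passed as lower in HSC-enriched cells by limma, where 12.4% of all genes did. The other marker, S100a8, had a difference of -1.40 and did not pass (adjusted p = 0.0712, limma). It was at 10.34, 10.01, 12.35 and 12.51 on HSC-enriched replicates 1 to 4 and at 12.59 to 12.77 on Lin+ arrays. In HSC-enriched cells 2 of the 16 markers averaged no more than the background guide, and in Lin+ cells 0 did. Ly6g, which encodes a surface antigen of neutrophils, was at 3.28 and 3.65 on replicates 1 and 2 and at 6.69 and 6.28 on replicates 3 and 4. Not every marker split the arrays in this way. Mpo, the neutrophil myeloperoxidase gene, was at 5.10, 5.52, 6.92 and 5.45 on HSC-enriched replicates 1 to 4. B cell genes averaged 6.62 on replicate 3 against 4.80 to 4.98 on the other HSC-enriched arrays. Replicate 3 was also the highest HSC-enriched array, by smaller margins, for erythroid markers (5.86) and monocyte and macrophage markers (5.36). The same held for T and NK cell markers (5.16) and eosinophil, basophil and mast cell markers (5.17). The part of neutrophil transcripts in the values of Ifitm6 was not tested. In sorted bulk samples, fewer cells of a type and less RNA per cell cannot be told apart.

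The 3 genes with the profile most like that of Ifitm6 across the 8 arrays were Mmp8, which encodes neutrophil collagenase, Wfdc21, a gene of the whey acidic protein family, and Ltf, which encodes lactoferrin. Likeness was the root mean square distance between log2 values after each gene was centred on its own mean over 8 arrays, and these distances were 0.25, 0.29 and 0.29. Mmp8 and Ltf are also among the 16 neutrophil markers. Mmp8 was at 5.73, 5.36, 8.80 and 9.43 on HSC-enriched replicates 1 to 4 and at 11.58, 11.88, 11.64 and 11.78 on the Lin+ replicates. The differences of Mmp8, Wfdc21 and Ltf were -4.39, -4.20 and -4.26, against -4.66 for Ifitm6.

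**Figure D2:**
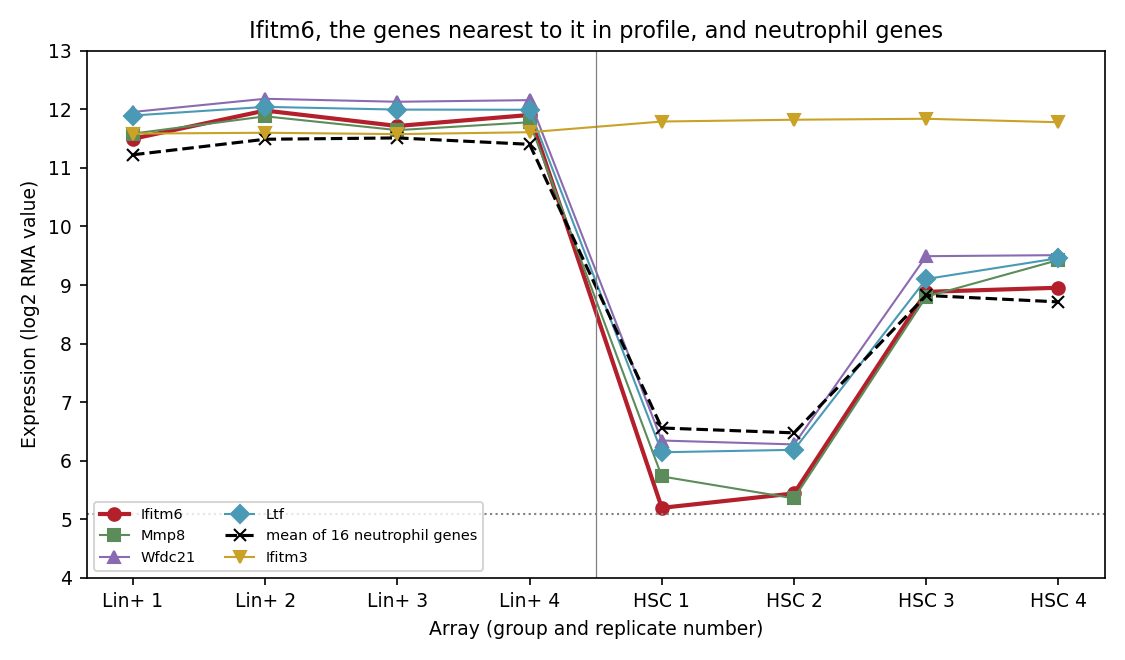
Log2 RMA level (vertical axis) on each array (horizontal axis, group and replicate) of Ifitm6, of Mmp8, Wfdc21 and Ltf, of Ifitm3, and the mean of 16 neutrophil marker genes (dashed black); the dotted line is the background guide of 5.10. Ifitm6, Mmp8, Wfdc21, Ltf and the dashed mean were high on Lin+ arrays. They were lowest on HSC-enriched replicates 1 and 2 and intermediate on replicates 3 and 4, while Ifitm3 stayed between 11.58 and 11.84. Not every single marker in the mean had this pattern. Mmp8, Wfdc21 and Ltf were picked for a profile like that of Ifitm6, and Mmp8 and Ltf also enter the dashed mean.

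Ifitm7 (74482), the member on chromosome 16, was the only one of the 6 to rise by more than 2-fold. It was at 6.02, 5.48, 5.56 and 4.58 on Lin+ replicates 1 to 4 and at 7.31, 6.66, 7.02 and 8.71 on HSC-enriched replicates 1 to 4. Every HSC-enriched array exceeded every Lin+ array, and HSC-enriched replicate 4 was the highest and Lin+ replicate 4 the lowest of the 8. The rise was 2.02 ± 0.43, or 4.05-fold (95% interval 2.10-fold to 7.81-fold, adjusted p = 0.00472, limma), and its difference was the 212th highest of 24011. It ranged from 1.59 to 2.27 with single arrays left out and passed in all 17 alternatives. The Lin+ mean of 5.41 was close to the background guide and Lin+ replicate 4 lay under it, so the size of the fold is less firm than its direction.

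The profiles nearest to that of Ifitm7 were those of Mycn, a transcription factor gene of the Myc family, Tle6, a gene of the Groucho corepressor family, and Aldh1l1, which encodes a folate enzyme, at distances of 0.47, 0.49 and 0.50. The Lin+ mean of Tle6 lay under the background guide. Mycn was at 7.53, 6.77 and 7.29 on HSC-enriched replicates 1 to 3, higher still on replicate 4, and at 4.92 to 5.52 on Lin+ arrays. Like Ifitm7, it had its highest value on HSC-enriched replicate 4. Nearest to Ifitm2 were Tiprl, Rab11fip5 and Rae1 (0.054, 0.057 and 0.072), with rises of 0.48 to 0.53, and nearest to Ifitm1 were Tmem184c, Dpp4 and Mybpc2 (0.32, 0.34 and 0.38), with differences of -1.37 to -1.25. Likeness was not computed for Ifitm3 and Ifitm5, which did not pass.

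Ifitm5 (73835) did not differ detectably between the populations. It was at 5.64, 5.25, 6.21 and 5.78 on the Lin+ and at 6.11, 5.68, 5.81 and 5.14 on the HSC-enriched replicates, and the groups overlapped. The difference was -0.04 ± 0.23 (95% interval -0.56 to 0.49, adjusted p = 0.945, limma). All 8 arrays lay above the background guide, the lowest by a margin under 0.1. Of 7 measured osteoblast markers, 7 averaged no more than the guide in HSC-enriched and 6 in Lin+ cells. Of these markers 0 passed the limma test, and 1 was lower at an unadjusted p under 0.05.

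**Figure D3:**
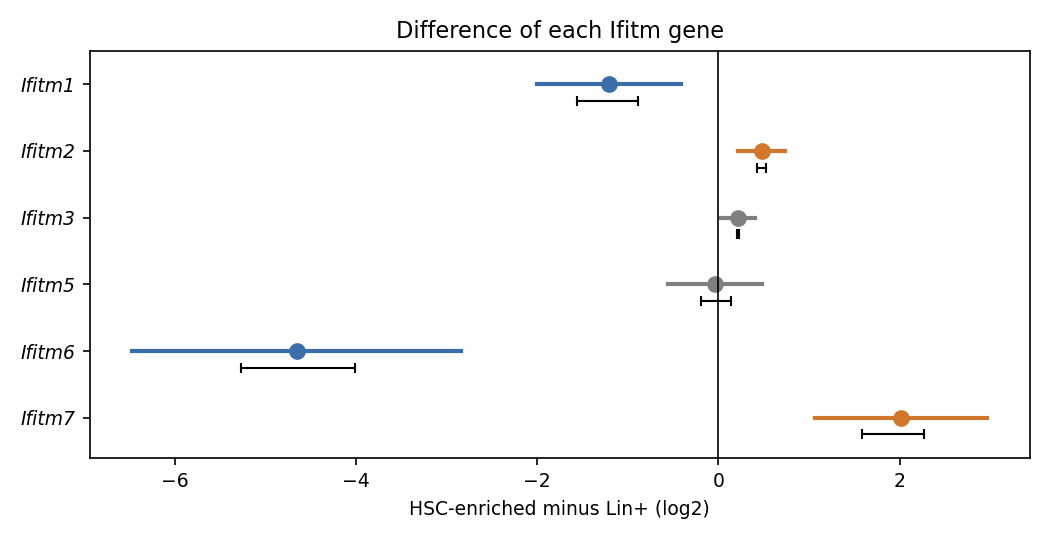
Difference of each Ifitm gene between HSC-enriched and Lin+ cells (horizontal axis, log2) with its 95% interval from limma (thick line) and the range of the difference when each of the 8 arrays was left out in turn (thin line below); orange marks genes that passed as higher, blue as lower and grey those that did not pass. The ranges of Ifitm1, Ifitm2, Ifitm3, Ifitm6 and Ifitm7 stayed on 1 side of 0, and that of Ifitm5 crossed it.

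Members were compared with each other through their log2 difference within each array, which no scaling constant of an array can change. Pairs with Ifitm5 or Ifitm7 were not compared. For each of the 6 pairs of Ifitm1, Ifitm2, Ifitm3 and Ifitm6, the 4 HSC-enriched arrays did not overlap the 4 Lin+ arrays. The pairs share members and are not independent, and Ifitm2, Ifitm3 and Ifitm6 each separated the groups alone, as did 28.9% of all genes. How many pairs of other genes separate was not computed, so the count of pairs is not a result about the family. Each pair had p = 0.0286 in an exact two-sided permutation test over the 70 splits of the arrays, the smallest p this design allows, and 0.0286 after Benjamini-Hochberg adjustment over the 6 pairs. The smallest of the 6 changes was that of Ifitm2 and Ifitm3. Ifitm2 minus Ifitm3 was -1.22, -0.99, -1.01 and -1.24 on Lin+ and -0.95, -0.73, -0.75 and -0.99 on HSC-enriched arrays, a change of 0.26. The gap between the groups was narrow there, and with quantile normalization repeated the change of 0.19 had an adjusted p of 0.143 in the exact permutation test. Ifitm1 minus Ifitm3 changed by -1.42 and Ifitm1 minus Ifitm2 by -1.69, sizes limited by the HSC-enriched mean of Ifitm1 of 4.86, which lies under the background guide. Ifitm3 minus Ifitm6 rose from between -0.38 and 0.09 on Lin+ arrays to 6.60, 6.38, 2.96 and 2.83 on HSC-enriched replicates 1 to 4. Ifitm1 minus Ifitm6 changed by 3.45, with an adjusted p of 0.0686 after repeated quantile normalization in the exact permutation test. Because Ifitm1 could hardly fall further from its Lin+ mean of 6.07, and Ifitm6 was also close to the guide on HSC-enriched replicates 1 and 2, this value does not show that the transcripts of these genes changed unequally.

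Interferon reaches Ifitm genes through cell-surface receptors, Janus kinases and Stat and Irf factors. Of 17 listed receptors and signal carriers 16 were measured, of which 7 were lower and 1 was higher in HSC-enriched cells, with a median difference of -0.27. Among all genes 12.4% were lower and 15.5% higher, and the list as a whole was not tested. Ifngr2, a chain of the interferon gamma receptor, was at 8.06, 7.47, 7.82 and 7.25 on HSC-enriched arrays against 9.42 to 9.77 on Lin+ arrays, a 3.70-fold fall (adjusted p = 2.0e-05, limma). Irf7, a factor that drives interferon genes, fell by 0.88 (adjusted p = 0.0003, limma). Socs3, an inhibitor of cytokine signalling, rose by 0.96 (adjusted p = 0.00654, limma), and lost its call when HSC-enriched replicates 3 and 4 were both left out (a difference of 0.87, adjusted p = 0.0595). Jak1 (0.03) and Irf2 (-0.08) did not pass.

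The interferon response also raises many other antiviral effectors. Of 26 listed 24 were measured, of which 12 were lower and 3 higher, with a median of -0.46. The shares of all genes were 12.4% lower and 15.5% higher, and this list as a whole was not tested either. Rsad2, which encodes viperin, and Samhd1, which encodes an enzyme that breaks down deoxynucleoside triphosphates, fell, with differences of -1.56 (adjusted p = 0.00011, limma) and -1.19 (1.4e-05). Rsad2 was at 8.12 to 8.76 on Lin+ and at 6.54 to 7.06 on HSC-enriched arrays. Ifih1, a sensor of viral RNA, rose by 1.04 (adjusted p = 0.00094, limma) and Xaf1 by 0.58 (0.00097). Bst2, the tethering factor of virus particles (-0.58), and Trim25 (-0.05) did not pass. Bst2 passed as lower with either filter on low values (adjusted p = 0.0412 and 0.0377), with trend and robust estimates (0.0498) and when HSC-enriched replicate 1 was left out (0.0276). Whether the Ifitm genes differ from these effectors as a group was not tested.

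**Figure D4:**
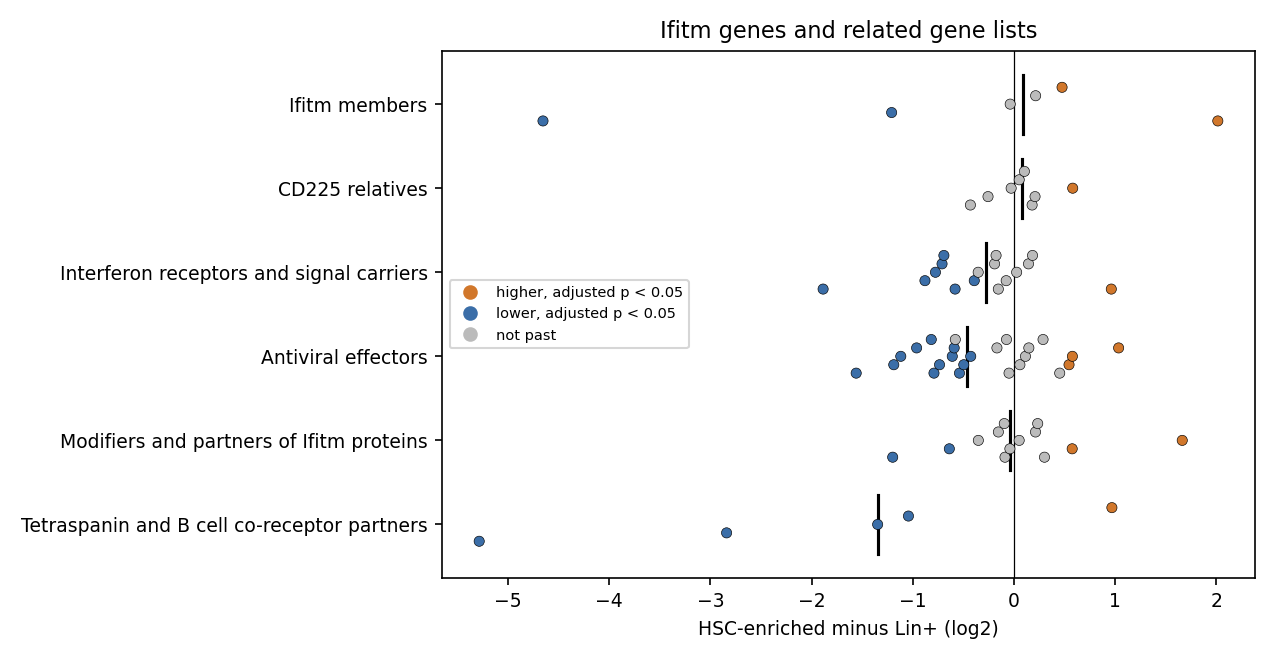
Difference between HSC-enriched and Lin+ cells (horizontal axis, log2) for every measured gene of the Ifitm family and of 5 related lists, with black bars at the list medians; orange and blue points passed as higher and lower and grey points did not pass. The medians were 0.09 for Ifitm genes and -0.27 and -0.46 for the interferon signalling and antiviral lists.

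Of 13 measured modifiers and partners of Ifitm proteins (14 listed), 2 were higher, 2 were lower and 9 did not pass, with a median of -0.04. Beside 15.5% higher and 12.4% lower among all genes, these counts are not a result about the list. Nedd4, a ubiquitin ligase known to mark Ifitm3 for turnover, was at 10.94, 10.98, 10.83 and 10.98 on HSC-enriched and at 9.22 to 9.35 on Lin+ arrays. This 3.17-fold rise (adjusted p = 8.1e-07, limma) was the largest of the list. Setd7, a lysine methyltransferase, rose by 0.58, and its call was lost when any 1 of Lin+ replicates 1, 2 and 4 or HSC-enriched replicates 2, 3 and 4 was left out (adjusted p up to 0.104) and when HSC-enriched replicates 3 and 4 were both left out (0.197). Zmpste24, a membrane protease that binds Ifitm proteins, fell 2.29-fold, and Zdhhc3, a palmitoyl transferase, fell by 0.64, the latter without a call when HSC-enriched replicates 3 and 4 were left out together (adjusted p = 0.0746). Vapa (-0.04) and Vcp (0.24) did not pass.

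Ifitm1 is also known as a partner of tetraspanins and of the B cell co-receptor. Of 5 measured genes of that list (6 listed), 1 was higher and 4 were lower, where 15.5% of all genes were higher and 12.4% lower. Cd81, the tetraspanin of the co-receptor, was at 11.28, 11.43, 11.32 and 11.46 on HSC-enriched arrays against 10.24 to 10.57 on Lin+ arrays, a 1.96-fold rise (adjusted p = 8.0e-05, limma). The B cell receptor genes Cd79a and Cd79b fell, with differences of -5.29 and -2.84, and 9 of 9 measured B cell markers, a list that holds both genes, were lower. The complement receptor gene Cr2 fell by 1.35 and the tetraspanin gene Cd9 fell by 1.04, both named here after their values were seen. All 4 HSC-enriched arrays of Cr2 lay under the background guide, so its fall may be understated.

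Of 8 further genes with the CD225 domain 1 passed as higher and 0 as lower by limma, with 1 lower at an unadjusted p under 0.05. With 8 genes, and 15.5% of all genes higher and 12.4% lower, these counts are not a result about the relatives. Prrt2, known from synapses, rose by 0.58 (adjusted p = 0.0171, limma), a call lost when Lin+ replicate 4 was left out (0.0505), when HSC-enriched replicate 3 was (0.0515) and when HSC-enriched replicates 3 and 4 both were (0.158). Tmem91 (-0.03) and Tmem233 (0.21) did not pass. Ifitm10, the family's further named relative, was singled out after its values were seen. It was at 5.35 to 5.81 on Lin+ and 4.91 to 5.43 on HSC-enriched arrays, near the background guide, and its difference of -0.43 did not pass (adjusted p = 0.0599, limma).

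Genes next to the Ifitm cluster on chromosome 7 moved in both directions. Of the 8 protein-coding genes on each side, 15 were measured, of which 4 were higher, 2 lower and 9 not past the test, with a median of -0.05. Since 15.5% of all genes were higher and 12.4% lower, counts among 15 genes are not a result about these neighbours. B4galnt4, the neighbour of Ifitm6, rose by 1.47 from a Lin+ mean of 4.45, under the background guide as were all 4 Lin+ arrays, so the size of this rise is not firm. Sirt3 rose by 1.43, Sigirr, an inhibitor of Toll-like and interleukin-1 receptor signalling, by 1.24 and Ric8a by 0.51. Psmd13 and Ptdss2 fell, with differences of -0.40 and -0.56. Psmd13 lost its call when any 1 of Lin+ replicates 2 and 4 and HSC-enriched replicate 4 was left out (adjusted p up to 0.0559). Ptdss2 lost its call when any 1 of Lin+ replicates 2 and 3 and HSC-enriched replicates 2, 3 and 4 was (up to 0.0962). Both lost theirs when HSC-enriched replicates 3 and 4 were left out (0.118 and 0.223). Around Ifitm7 on chromosome 16, 7 of 15 measured neighbours were higher and 0 lower by limma, with 1 lower at an unadjusted p under 0.05 and a median of 0.385. The gene that follows it, Bmerb1, overlaps Ifitm7 in the RefSeq table and rose by 0.68, from 3.62 to 4.13 on Lin+ to 4.37 to 4.56 on HSC-enriched arrays, all under the background guide. Pdxdc1, a further neighbour, rose by 0.74. Whether the neighbours on chromosome 16 differ from all genes, of which 15.5% were higher, was not tested.

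Of the marker lists used to check the sort, all 14 measured HSC genes were higher. The HSC list holds genes of antigens named for the sort, and the rise of these is no independent check. All measured markers of monocytes and macrophages (10), T and NK cells (10), erythroid cells (8) and eosinophils, basophils and mast cells (8) were lower. Megakaryocyte markers were higher in 4 of 6 and endothelial markers in 2 of 7, with 1 lower. Among all genes 15.5% were higher and 12.4% lower by the same limma test. Beside these shares the endothelial counts are not a result about that list, and no marker list was tested as a whole. Array medians ran from 5.22 to 5.33, and the number of arrays limits the precision.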

How the data were processed

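RNA of sorted marrow cells was amplified and measured on MouseGene 1.0st and 2.0st arrays, per the labels' protocols, and the array type of each sample was not told apart here. The authors deposited log2 values of 24973 probe sets on 8 arrays, and the submitters' processing notes name RMA and Partek, without versions. The build, the probe set definition and any pooling of animals were not given in the sources used here.

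Each of 24015 probe sets had 1 symbol, 0 had several and 958 had none. Symbols of 23922 were updated by Entrez gene ID through RefSeq (GRCm38.p6), and the brightest probe set per symbol was kept (4 left out). HSC-enriched minus Lin+ differences were tested in limma 3.58.1 under R 4.3.3, by lmFit followed by eBayes, without covariates, two-sided, with Benjamini-Hochberg adjustment over 24011 genes and no filter on low values, and the fit was tested on simulated data. Any adjusted p given with no test named comes from it. Exact permutation tests used scipy 1.17.1 and figures matplotlib 3.10.9.

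Members and lists were chosen with earlier results of these data known. Besides the 6 members, the rule for named genes took per list up to 2 rising, 2 falling and 2 not passing genes, the 3 genes most like each passing member, and 8 neighbours on each side. Cd9, Cr2 and Ifitm10 fall outside it. Not all genes it allows are named. Alternatives were centring on array medians, repeated quantile normalization, filters at the 40th percentile or median of all values on 4 arrays, averaging of probe sets of 1 gene, eBayes with trend and robust options, weights per array, a block for the replicate number, each array left out, and HSC-enriched replicates 3 and 4 left out together. No 2 arrays were the same: within a group, differences between 2 arrays had an SD over genes of at least 0.334. Listed genes that were not measured were not analysed here.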

Additional observations from a re-analysis of the deposited data

Results flagged for a closer look

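In 5 of 110 groups of 4 arrays (55 genes, both populations), 1 array lay apart from the other 3 by more than Dixon's 95% critical value, where chance gives about 1 in 20 groups. None of the 6 Ifitm genes was among them. Prrt2 was at 5.64 on its lowest HSC-enriched array, with the next at 6.18. Sirt3 was at 5.76 on its lowest Lin+ array (next 6.24), B4galnt4 at 4.27 (next 4.48) and Mpo, the neutrophil myeloperoxidase gene, at 10.84 (next 11.28). Ric8a was at 8.13 on its highest HSC-enriched array, with the next at 7.82.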

How the results depend on the processing

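Ifitm2, Ifitm6 and Ifitm7 kept direction and call in all 17 alternatives. The count of lower Ifitm genes was 1 with the filter at the median, which left Ifitm1 out, 1 without HSC-enriched replicates 3 and 4 together, and 1 to 2 with single arrays left out. Ifitm1 was at -1.24 without those 2 arrays and at -1.56 to -0.89 with single arrays left out. Ifitm3 passed with repeated quantile normalization (0.45) and with trend and robust estimates (0.22). Ifitm5 turned sign, never passing, with array weights (0.0309), without HSC-enriched replicates 3 and 4 together (0.17) and with single arrays left out (-0.19 to 0.145).

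Without HSC-enriched replicates 3 and 4 together, the higher counts were 0 for CD225 relatives, 0 for interferon receptors and signal carriers and 1 for modifiers and partners, whose lower count was 1. With single arrays left out, the CD225 relatives had 0 to 1 higher and 0 to 1 lower genes and the modifiers 1 to 2 higher ones. The CD225 relatives had 1 lower gene, Ifitm10, with centring, repeated quantile normalization and either filter. In the pairs, repeated quantile normalization gave 3.28 for Ifitm1 minus Ifitm6 and 0.19 for Ifitm2 minus Ifitm3. Leaving out both HSC-enriched replicates 3 and 4 gave 5.21, 6.95 and 6.67 for Ifitm1, Ifitm2 and Ifitm3 minus Ifitm6. The cause of these changes was not tested.

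S100a8 passed as lower with either filter on low values (adjusted p = 0.0451 and 0.0413, limma). It also passed without HSC-enriched replicate 3 (0.0282), without replicate 4 (0.0176) and without both (5.5e-06). Of the 49 genes named besides the Ifitm genes, 4 turned sign without passing. These were Irf2 (0.0120), Trim25 (0.0283) and Vapa (0.0497) with repeated quantile normalization, Vapa also without HSC-enriched replicates 3 and 4 together (0.0535), and with single arrays left out Tmem91 (-0.0621 to 0.0242), Trim25 (-0.0810 to 0.0018) and Vapa (-0.10 to 0.0147).

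Deviations from the group means of arrays with the same replicate number correlated at -0.15, 0.06, 0.03 and -0.10 across genes. HSC-enriched replicates 2 and 3 correlated best with the Lin+ array of their own number, and replicates 1 and 4 did not. Low correlations between populations this different cannot exclude that arrays of 1 number are paired, which the labels do not state. With the replicate number as a block, 3379 genes were higher and 2743 lower against 3716 and 2969 without it, and the 4 Ifitm calls were kept. With this block Psmd13 (adjusted p = 0.068, limma) and Ptdss2 (0.0828) lost their calls and Bst2 passed as lower (0.0317). Probe sets near background, as those of Ifitm1, Ifitm5 and, in Lin+ cells, Ifitm7, allow no firm statement on small differences or on the size of a fold.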
